A study of Mus musculus with 6 samples.

Results

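The ATP-binding cassette (ABC) transporter genes were compared between control and Brd9 KO hematopoietic progenitors of the mouse. The members were all genes in the deposited expression tables whose symbol is Abc, a subfamily letter from a to g and a number, with or without a final letter. This rule found 50 of 24411 genes, namely 16 in subfamily A, 10 in B, 10 in C, 4 in D, 1 in E, 3 in F and 6 in G. Tap1, Tap2 and Cftr belong to the same family under other symbols, and they are given below with the genes that work beside the transporters.

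Bulk RNA-seq was performed on 6 libraries of C57BL/6 mice, 3 control (CD45.2(+) Brd9fl/fl) and 3 Brd9 KO (CD45.2(+) Mx1-Cre Brd9fl/fl), with both groups treated with pIpC at 20 mg/kg for 3 doses and taken 8 weeks later. Brd9 encodes a bromodomain subunit of the non-canonical BAF chromatin remodelling complex, and Mx1-Cre is a recombinase whose promoter responds to interferon, which the RNA mimic pIpC induces in hematopoietic and other cells. The series design puts the injections at 4 weeks after birth in primary mice, while the sample labels describe transplant recipients and the study's text describes older animals. The labels name lineage-negative marrow cells of femora and tibiae, and the study's methods add a sort for c-Kit. Control mice held no Cre, so Cre itself and Brd9 loss cannot be told apart. Kit, the gene of the sorted receptor, stood at 205 to 229 CPM for control and 178 to 269 CPM in the KO libraries, where CPM is the expected count scaled to library size with TMM factors.

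ABC transporters use the energy of ATP, bound at a pair of conserved nucleotide-binding domains, to move substrates across membranes. Subfamily A carries lipids, B holds the P-glycoprotein drug pumps and the mitochondrial transporters of heme and iron-sulfur metabolism, C holds the multidrug resistance proteins that export conjugates and the sulfonylurea receptors of potassium channels, and D serves mainly the peroxisome. Members of E and F have no membrane-spanning part and act on the ribosome. In the marrow the family is best known for Abcg2, whose dye efflux defines the side population of stem cells.

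Brd9 itself was at 45.9, 49.1 and 52.1 CPM across the control libraries, against 15.6, 13.5 and 21.0 CPM in the KO libraries, so the KO libraries lay wholly below control (a log2 fold change of -1.56 ± 0.17 SE, adjusted p = 0.00345, edgeR's quasi-likelihood test; exact two-sided permutation p = 0.1, the smallest that 3 libraries against 3 can give). Expected counts per library summed to between 21151031 and 28500168. Markers of other cell types also moved with genotype. Of the mesenchymal stroma markers 11 of 14 tested were higher and none lower, and their summed level was 39.5 to 60.1 CPM for control and 121 to 192 CPM in the KO libraries. Eosinophil markers summed to 1775 to 2337 and 3821 to 7447 CPM, mast cell and basophil markers to 2202 to 2865 and 3872 to 5812 CPM, and megakaryocyte and platelet markers to 1837 to 3047 and 3851 to 5329 CPM, with 6 of 7, 6 of 7 and 7 of 12 tested higher. The remaining eosinophil marker, the eosinophil peroxidase gene Epx, was lower (310 ± 12.0 to 106 ± 24.5 CPM, -1.54 ± 0.17 on the log2 scale), and Prg2 made up most of the sum of that list (1635 ± 280 to 4512 ± 1920 CPM). Erythroid markers summed to 3063 to 3575 and 1899 to 2645 CPM, with 7 of 11 lower, and progenitor markers to 17940 to 21530 and 11530 to 13230 CPM, with 3 of 10 lower. Mpo held the largest part of the progenitor sum (10316 ± 716 to 5248 ± 157 CPM). In that list Myb, Cd34 and Kit were the 3 genes with a positive log2 fold change (0.28, 0.16 and 0.11), and none of these was called. Macrophage markers (7 higher and 2 lower of 11) spanned 103 to 148 and 113 to 164 CPM, endothelial markers (5 higher of 11) 148 to 180 and 148 to 177 CPM, and lymphoid markers (2 higher and 1 lower of 11) 344 to 400 and 207 to 333 CPM. Nkg7, the lymphoid marker called lower, held the largest part of the lymphoid sum (268 ± 37.7 to 137 ± 21.8 CPM). Gzma and Ncr1 were called higher (2.69 and 1.26 on the log2 scale), and 6 of the 11 lymphoid markers had a positive log2 fold change. Neutrophil maturation markers (2 higher and 1 lower of 12) spanned 1803 to 3257 CPM for control and 1327 to 8018 CPM in the KO libraries. The 8018 CPM was that of Brd9 KO replicate 3 alone. Its S100a9 stood at 3293 CPM, against 462 and 560 CPM in Brd9 KO replicates 1 and 2 and 557 to 1041 CPM in control. No marker of these lists was at 0 in every library. The part of these shifts in the values below was not tested, and in bulk RNA fewer cells of a type and less RNA per cell cannot be told apart.

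Few ABC transporter genes changed in Brd9 KO: the conjugate exporters Abcc2 and Abcc3, the channel subunit gene Abcc9 and the lipid transporter Abca7 rose, and Abcg2 and Abca9 fell, while 30 tested members did not pass the test. Of the 50 members 36 passed the expression filter, and 6 of these were called at an adjusted p under 0.1, 4 higher and 2 lower. That share is 16.7%, against 15.4% of all 12953 genes tested, so the family was called about as often as other genes. By direction, 11.1% of the tested members were higher against 9.19% of all genes, and 5.56% were lower against 6.25%. The libraries of the groups did not overlap for 11 tested members, or 30.6% against 33.5% of all genes. The KO libraries were above in 6 of them and below in 5, and over all genes these shares were 17.2% and 16.3%. Abcc9 is among the 4 higher and these 6, but it passed the filter only through its KO libraries. It therefore adds no support to these counts and shares. The median log2 fold change was 0.10 in the family and 0.02 over all genes, and 28 of the 36 stood within 0.5 of 0. The count of higher members was 7 once Brd9 KO replicate 3 was left out, 2 when control replicate 1 or 2 was, and 1 when control replicate 3, Brd9 KO replicate 1 or Brd9 KO replicate 2 was. That of lower members was 3 leaving out control replicate 1, and 1 leaving out Brd9 KO replicate 1 or either of control replicates 2 and 3.

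**Figure D1:**
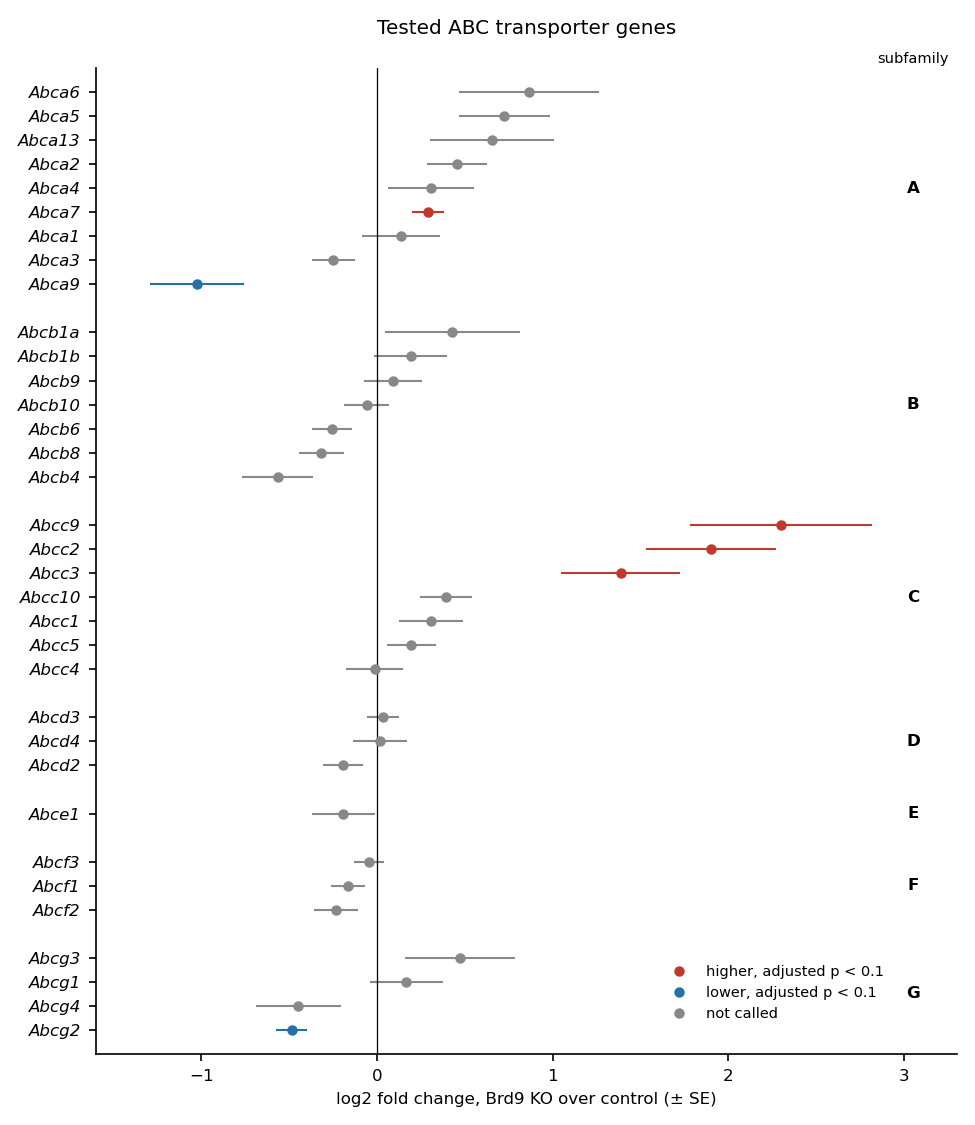
Change between control and Brd9 KO on the log2 scale (horizontal axis, positive where KO is higher, points with SE bars) for 34 of the tested ABC transporter genes (vertical axis), grouped by subfamily. Red points are the 4 called higher and blue points the 2 called lower, and the 3 largest rises are all in subfamily C. Of these 3, Abcc9 passed the filter only through its KO libraries.

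The remaining 14 members were not tested. Abca12, Abca14, Abca15, Abca16, Abcb5, Abcb11, Abcg5 and Abcg8 had no count in any of the 6 libraries, which allows a level of up to 0.109 to 0.145 CPM per library (3 counts, counting error only). They include the bile salt pump Abcb11 and the sterol exporter pair Abcg5 and Abcg8 of liver and gut. Abca17, Abca8a, Abca8b, Abcc6, Abcc8 and Abcc12 had between 1 and 36 counts over all libraries. Among tested members, Abcc9 reached the filter's 0.405 CPM, taken before TMM scaling, in no control library and all 3 KO libraries, Abca6 in 1 control library and Abcb1a in 2, so these 3 passed through the KO group and only a difference could bring Abcc9 into the test.

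Compared per length as TPM (the authors' length-scaled level, which has the same sum in every library), the ribosome-associated members were the most abundant. Subfamily F summed to 181 ± 31.0 TPM in control and 187 ± 33.8 TPM in Brd9 KO (SD, n = 3), B to 138 ± 25.9 and 139 ± 31.2, E, which is Abce1 alone, to 73.1 ± 20.7 and 75.0 ± 23.3, and A to 67.0 ± 10.4 and 90.2 ± 18.6. D summed to 62.3 ± 11.8 and 73.5 ± 14.1 TPM, C to 46.5 ± 10.3 and 61.8 ± 16.7, and G to 41.9 ± 6.11 and 38.1 ± 6.86. The highest single genes by mean TPM over the 6 libraries were Abcf1 (89.2), Abce1 (74.1), Abcf2 (71.0), Abca7 (38.3) and Abcb10 (37.2). Within each library Abcf1 was above Abce1 and Abcf2. The order of Abce1 and Abcf2 changed between libraries, as did that of Abca7 and Abcb10. No test of the groups rests on TPM here unless it is named, since the median log2 fold change over all genes was 0.18 on log2(TPM + 1) and 0.02 on scaled counts.

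**Figure D2:**
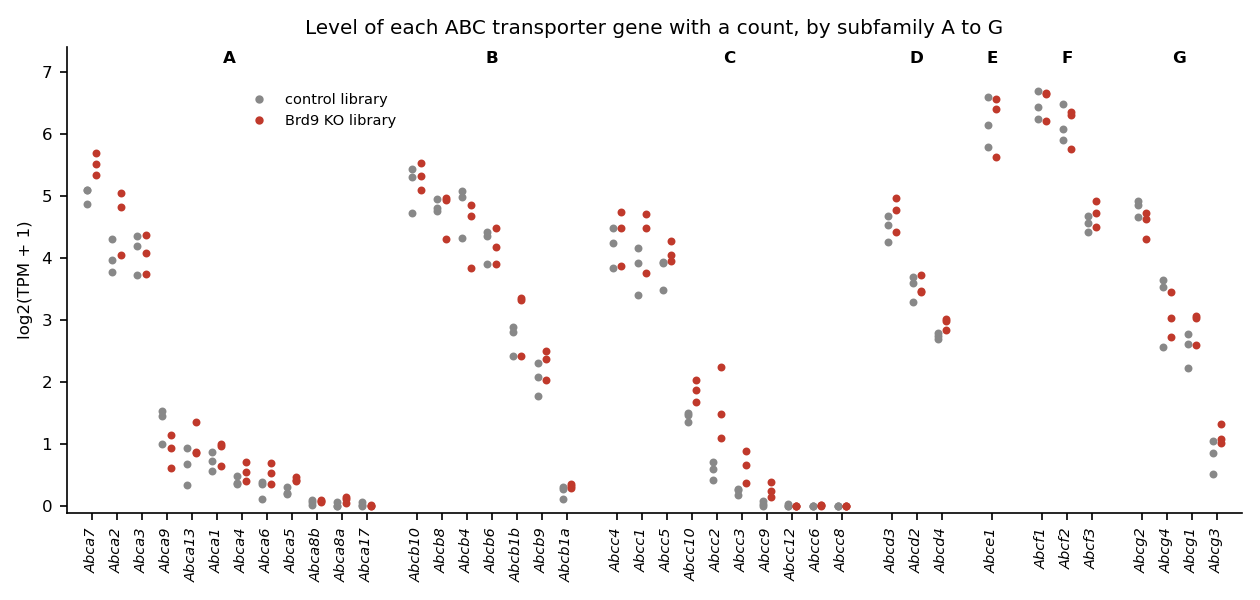
Level of 40 members with a count in any library, as log2(TPM + 1) (vertical axis), by gene and subfamily (horizontal axis). Each point is a library, grey for control and red for Brd9 KO. Abcf1, Abce1 and Abcf2 stand highest, and subfamilies A and C reach from near 0 up to means of 38.3 and 18.9 TPM.

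Subfamily G held 1 call, Abcg2, whose libraries had the smallest SD relative to their mean of the 36 tested members. Abcg2, the efflux pump of dyes, porphyrins and drugs that marks the side population, was at 52.0, 50.3 and 50.5 CPM across the control libraries, against 36.9, 36.3 and 35.9 CPM in the KO libraries. Each KO library lay below each control library, and within a group the libraries differed by less than 2 CPM. The level fell from 50.9 ± 0.957 to 36.4 ± 0.470 CPM (a log2 fold change of -0.49 ± 0.09 SE, adjusted p = 0.0181). It passed the test without any single library, with an adjusted p of 0.0176 to 0.0918, but the change is under 1.5-fold. On log2(TPM + 1) it stood at -0.26 and was not called (adjusted p = 0.37), where the median of all genes was 0.18.

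The other tested G members were not called. Abcg4, a sterol exporter close to Abcg1, was at 15.9, 29.5 and 28.7 CPM across the control libraries, against 16.8, 21.3 and 16.2 CPM in the KO libraries (a log2 fold change of -0.45 ± 0.24, adjusted p = 0.266). Control replicate 1 lay below all 3 KO libraries and the other control libraries above them, and without control replicate 1 Abcg4 was called lower (-0.69, adjusted p = 0.0621). Abcg1, which exports cholesterol to high-density lipoprotein, was at 22.9 ± 6.34 and 25.7 ± 2.34 CPM (0.17 ± 0.21). Abcg3, a rodent relative of Abcg2, was at 1.75 ± 0.629 and 2.44 ± 0.375 CPM (0.47 ± 0.31).

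Subfamily C held 3 of the 4 called rises, all from low control levels, or 42.9% of its 7 tested members against 9.19% of all genes. Of these 3, Abcc9 entered the test only through its KO libraries, so its call adds no support to that count. Abcc2, the multidrug resistance protein that exports conjugated bilirubin from liver cells, was at 1.63, 2.02 and 2.65 CPM across the control libraries, against 6.42, 12.2 and 4.97 CPM in the KO libraries. All KO libraries were above all control libraries, with Brd9 KO replicate 2 the highest. The mean rose from 2.10 ± 0.516 to 7.85 ± 3.80 CPM (a log2 fold change of 1.90 ± 0.37, adjusted p = 0.0244). It was called in all 19 alternative settings, and the value was 1.43 without Brd9 KO replicate 2. Abcc2 lies on the forward strand of chromosome 19, from 43782192 to 43840740 (mm10, GENCODE annotation).

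Abcc3, an exporter of glucuronides and bile salts, was at 0.643, 0.759 and 0.773 CPM across the control libraries, against 1.88, 2.58 and 1.21 CPM in the KO libraries. The groups did not overlap, and Brd9 KO replicate 3 was nearest to control. The rise (a log2 fold change of 1.39 ± 0.34, adjusted p = 0.0467) kept its call without Brd9 KO replicate 3 and lost it without any 1 of the other libraries, at an adjusted p of 0.12 to 0.163. Abcc9, the sulfonylurea receptor SUR2 of potassium channels in muscle and pericytes, had 6, 7 and 2 counts in control and 22, 38 and 13 counts in Brd9 KO, or 0.199 ± 0.114 and 0.970 ± 0.383 CPM. The KO counts were all above the control counts, at depths where few reads decide the value (2.30 ± 0.52, adjusted p = 0.0379). It was not called without control replicate 3 (1.89, adjusted p = 0.105), Brd9 KO replicate 1 (2.36, 0.104) or Brd9 KO replicate 2 (1.94, 0.12), and an antisense transcript overlaps the gene, so its reads cannot be assigned to a strand if the libraries were unstranded. Mesenchymal stroma markers, which include the pericyte gene Pdgfrb, rose with Abcc9 as given above, and their part in its rise was not tested.

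The abundant multidrug resistance genes were not called. Abcc4, an exporter of cyclic nucleotides that platelets hold, had the highest TPM of its subfamily and stood at 65.9, 86.8 and 76.5 CPM across the control libraries, against 79.2, 87.6 and 60.4 CPM in the KO libraries (a log2 fold change of -0.01 ± 0.16, adjusted p = 0.969). Its groups overlapped fully, while the megakaryocyte and platelet markers rose. Abcc1, the leukotriene C4 exporter, was at 62.7 ± 10.5 and 77.6 ± 15.7 CPM (0.31 ± 0.18) and was called higher without Brd9 KO replicate 3 (0.46, adjusted p = 0.0605). Abcc5 was at 41.8 ± 7.03 and 47.8 ± 2.89 CPM (0.20 ± 0.14). Abcc10 was at 6.81, 6.20 and 6.81 CPM across the control libraries, against 8.47, 9.02 and 8.54 CPM in the KO libraries, without overlap (0.39 ± 0.15, adjusted p = 0.14).

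**Figure D3:**
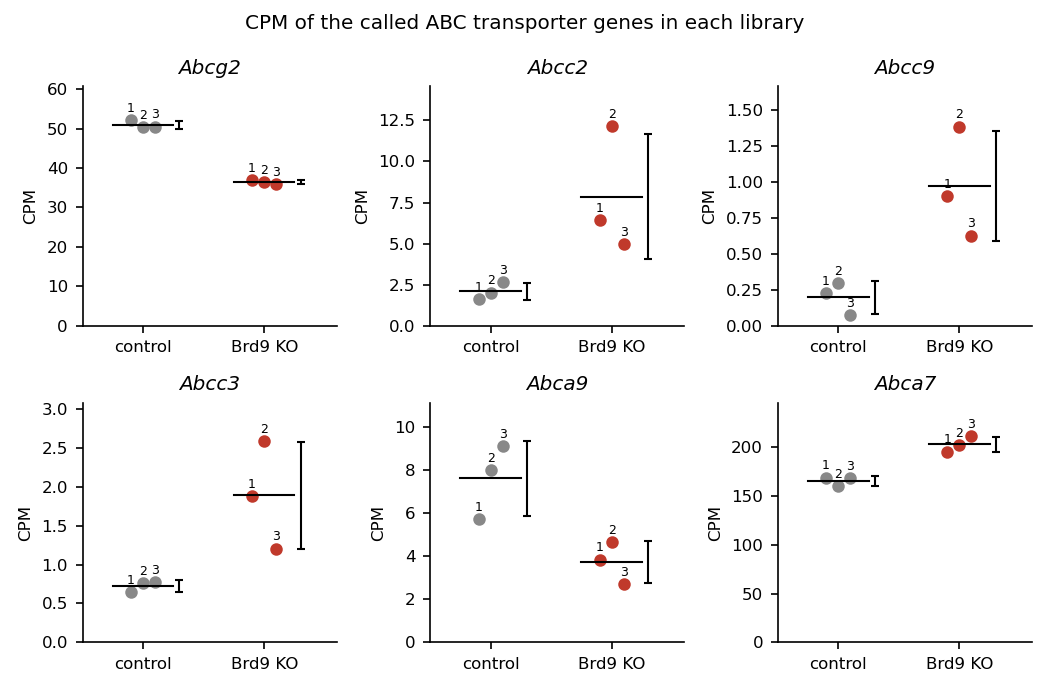
CPM (vertical axes, from 0) of the 6 called ABC transporter genes in the control (grey) and Brd9 KO (red) libraries, numbered by replicate. Lines are group means and bars are SD over 3 libraries. The groups do not overlap in any of the 6 genes, and Abcg2 shows the least spread within a group relative to its mean.

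The sequences around the starts of Abcc2 and Abcg2 are shown because these 2 members kept their calls whichever library was left out. Each is the RefSeq window (GRCm38.p6, the sequence of mm10) of 300 bases on the forward strand that holds the start of the transcript counted in the files, written 5′ to 3′, at chr19:43782058-43782357 for Abcc2 and chr6:58596422-58596721 for Abcg2, which has 3 such windows. Capitals mark matches on either strand to the motifs searched.
Abcc2: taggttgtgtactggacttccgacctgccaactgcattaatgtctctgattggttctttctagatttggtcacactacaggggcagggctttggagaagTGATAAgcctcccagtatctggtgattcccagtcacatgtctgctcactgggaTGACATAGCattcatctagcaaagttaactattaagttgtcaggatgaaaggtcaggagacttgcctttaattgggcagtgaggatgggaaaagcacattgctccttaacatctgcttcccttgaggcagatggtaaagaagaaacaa
Abcg2: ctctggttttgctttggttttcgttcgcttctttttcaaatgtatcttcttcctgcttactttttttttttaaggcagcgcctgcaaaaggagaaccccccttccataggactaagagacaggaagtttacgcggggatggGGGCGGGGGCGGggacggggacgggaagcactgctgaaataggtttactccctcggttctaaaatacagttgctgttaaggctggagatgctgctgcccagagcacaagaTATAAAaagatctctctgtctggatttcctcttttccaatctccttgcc
The motifs were the GATA motifs AGATAA and TGATAA, the GC box GGGCGG, the TATA box TATAAA, the antioxidant response element TGACNNNGC and the E-box CACGTG. The Abcc2 window held TGATAA, found in 9.05% of all 32851 windows, and an antioxidant response element (12.4%). The Abcg2 window held 2 adjacent GC boxes (35.7% of windows hold at least 1) and a TATA box (13.6%). No matches overlapped each other. These matches describe the letters only, and no binding was measured here.

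Subfamily A, the lipid carriers, showed calls in both directions. Abca7, a phospholipid transporter of myeloid cells and the most abundant A member, was at 169, 160 and 168 CPM across the control libraries, against 195, 202 and 211 CPM in the KO libraries. All KO libraries were above control, and the rise was small (a log2 fold change of 0.29 ± 0.09, adjusted p = 0.0929). It was called without Brd9 KO replicate 3 alone among the single-library alternatives, since the adjusted p was 0.173, 0.227 and 0.191 without control replicate 1, 2 and 3, and 0.221 and 0.232 without Brd9 KO replicate 1 and 2. Abca2, a lipid transporter of late endosomes and lysosomes, was at 93.3, 110.3 and 91.1 CPM across the control libraries, against 145, 157 and 102 CPM in the KO libraries (0.45 ± 0.17, adjusted p = 0.137). Its groups overlapped through Brd9 KO replicate 3, and without that library it was called higher (0.62, adjusted p = 0.0146), as it was by DESeq2 on all libraries (0.45, adjusted p = 0.0861).

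Abca9 was the called A member that fell. It was at 5.71, 8.01 and 9.13 CPM across the control libraries, against 3.85, 4.66 and 2.70 CPM in the KO libraries, with no overlap. The mean went from 7.62 ± 1.74 to 3.73 ± 0.983 CPM (a log2 fold change of -1.02 ± 0.27, adjusted p = 0.0567). The call was lost without control replicate 2 (-0.99, adjusted p = 0.1445), control replicate 3 (-0.87, 0.16) or Brd9 KO replicate 1 (-1.04, 0.162), and on log2(TPM + 1) (-0.43, 0.235). Abca9 is on chromosome 11 (110100749 to 110168196, mm10, reverse strand) in a run of 5 related genes on the same strand. Neither neighbour was called. Abca6 (110176820 to 110251776) was at 0.511 ± 0.196 and 0.946 ± 0.303 CPM (0.87 ± 0.40, adjusted p = 0.203), and Abca8a (110025634 to 110095978) had 2, 1 and 6 counts in control and 8, 10 and 4 in Brd9 KO and was not tested. Abca5 (110269369 to 110337716), beyond Abca6, was at 1.21, 1.48 and 0.957 CPM across the control libraries, against 1.84, 1.96 and 2.22 CPM in the KO libraries, without overlap (0.72 ± 0.26, adjusted p = 0.122), and Abca8b (109932190 to 109995845) had 3 to 8 counts per library.

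Abca1, the exporter that starts cholesterol efflux to lipoprotein particles, was at 5.37 ± 1.09 CPM for control and 5.90 ± 0.946 CPM in the KO libraries (a log2 fold change of 0.14 ± 0.22, adjusted p = 0.716). Abca3, which loads lipid into lamellar bodies of the lung, was at 82.3 ± 9.86 and 69.4 ± 6.16 CPM (-0.25 ± 0.12). Abca13 (0.65 ± 0.35) and the retinal transporter Abca4 (0.31 ± 0.25) were also not called. Apart from Abca9 and Abca3, the 7 other tested A members had a positive log2 fold change, and the median of the 9 was 0.31. Over all genes 6716 of 12953 were positive, with a median of 0.02. Abca6 is among the 7 but passed the filter through its KO libraries, so it adds no support to that count.

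Subfamily B held no call by edgeR's quasi-likelihood test. Of its 8 tested members 2 had an unadjusted p under 0.05, a count not set against all genes here. DESeq2 called 1 of the 8, Abcb4, and 2750 of all 12953 genes. Abcb4, a phosphatidylcholine transporter, was at 68.8, 88.9 and 100.4 CPM across the control libraries, against 64.4, 67.4 and 42.8 CPM in the KO libraries. The KO libraries lay below control, by a narrow margin from control replicate 1 (a log2 fold change of -0.56 ± 0.20, adjusted p = 0.124; DESeq2 -0.57, adjusted p = 0.052). Its neighbours on chromosome 5, the drug pump genes Abcb1a (8660077 to 8748575, mm10) and Abcb1b (8798147 to 8866315), were the only members with expected counts that were not whole, so the counting divided shared reads between them and their single values are uncertain. Their summed level was 17.4, 19.4 and 21.7 CPM for control and 27.0, 23.9 and 16.2 CPM in the KO libraries, and the groups overlapped. Abcb1b held most of it and was called higher without Brd9 KO replicate 3 (0.39, adjusted p = 0.0787).

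The mitochondrial B members serve heme and iron-sulfur metabolism. Abcb10, an inner membrane transporter of the heme pathway and the most abundant B member, was at 97.2, 129 and 125 CPM across the control libraries, against 109, 115 and 113 CPM in the KO libraries. The KO libraries lay inside the control range (a log2 fold change of -0.06 ± 0.13, adjusted p = 0.791). Abcb6, a porphyrin transporter, stood at -0.26 ± 0.11. Abcb8 was at 68.9, 61.5 and 56.4 CPM across the control libraries, against 55.0, 51.9 and 43.1 CPM in the KO libraries, just without overlap (-0.32 ± 0.13, adjusted p = 0.156). The lysosomal peptide transporter Abcb9 was at 8.17 ± 1.11 and 8.69 ± 0.517 CPM (0.09 ± 0.17).

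The D, E and F members were not called by edgeR, DESeq2, limma-voom or limma on TPM, and none of their 8 tested genes had an unadjusted p under 0.05. In D, the peroxisomal fatty acid transporter Abcd2 was at 44.0, 44.3 and 50.6 CPM across the control libraries, against 36.6, 40.8 and 44.1 CPM in the KO libraries (a log2 fold change of -0.19 ± 0.11, adjusted p = 0.3), overlapping through Brd9 KO replicate 3. Abcd3 stood at 0.03 ± 0.09 and the lysosomal cobalamin transporter Abcd4 at 0.02 ± 0.16. Of the ribosome-associated genes, Abce1, which splits ribosomes after termination, was at 184, 258 and 199 CPM across the control libraries, against 204, 210 and 147 CPM in the KO libraries (-0.19 ± 0.18, adjusted p = 0.515). Abcf1, a partner of initiation factor eIF2, was at 206, 225 and 199 CPM and at 198, 185 and 180.5 CPM, with a gap of about 1 CPM between the groups (-0.16 ± 0.10, adjusted p = 0.316). Abcf2 was at 131, 157 and 124 CPM and at 126, 119 and 106 CPM (-0.23 ± 0.13, adjusted p = 0.266), and Abcf3 at 56.8 ± 1.72 and 55.1 ± 1.57 CPM (-0.04 ± 0.09). All 4 log2 fold changes were negative on scaled counts, but mean TPM, on which all genes shifted upwards by a median of 0.18 (log2), was higher in Brd9 KO for Abcf1 (87.5 ± 13.6 and 90.9 ± 15.3), Abcf3 (22.5 ± 2.10 and 25.4 ± 3.77) and Abce1 (73.1 ± 20.7 and 75.0 ± 23.3).

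Genes that work beside the transporters were read from 8 lists chosen by role. Over all lists 5 genes were higher and 14 lower, and 7 of the 14 were in the list of heme and iron-sulfur cluster genes. There 7 of 21 tested were lower (33.3%, against 6.25% of all genes) and none higher, also with any single library left out. Its median log2 fold change was -0.35, and limma on log2(TPM + 1) called 3 of its genes. The 14 genes of the list that were not called include Alas2 (-0.15 ± 0.24) and Slc25a37 (0.004 ± 0.19). Bola3, a factor that hands on iron-sulfur clusters, went from 41.9 ± 3.95 to 26.9 ± 1.48 CPM (-0.64 ± 0.11, adjusted p = 0.016), Alas1, the first enzyme of heme synthesis, from 437 ± 45.2 to 294 ± 18.4 CPM (-0.57 ± 0.11) and Lyrm4, a subunit of the cysteine desulfurase complex, from 22.3 ± 3.47 to 14.3 ± 0.773 CPM (-0.64 ± 0.14). The mitochondrial transporters Abcb10, Abcb6 and Abcb8 had log2 fold changes of -0.06, -0.26 and -0.32 and no call. The list median was -0.35, and the transporters were not tested against the list. Lower members of the list numbered 4 without control replicate 1, 3 without control replicate 2 or 3, 1 and 2 without Brd9 KO replicate 1 and 2, and 13 without Brd9 KO replicate 3. Of the erythroid markers 7 of 11 were lower, as given above, and their part in the fall of this list was not tested.

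In the list of cholesterol efflux and LXR genes, which goes with Abca1 and Abcg1, 3 of 19 were higher and 2 lower, where 9.19% and 6.25% of all genes were. The lipid-carrying apolipoprotein genes Apoe (from 145 ± 45.2 to 60.3 ± 9.97 CPM, a log2 fold change of -1.26 ± 0.23, adjusted p = 0.019) and Apoc1 (-2.29 ± 0.52) fell, while the lipoprotein lipase gene Lpl (1.14 ± 0.26), the LXR target Mylip (0.53 ± 0.12) and the retinoid receptor gene Rxra (0.59 ± 0.18) rose. The LXR genes themselves were not called (Nr1h2 0.05 ± 0.09 and Nr1h3 0.29 ± 0.35). The higher genes numbered 1 leaving out control replicate 1 or 2 and 0 leaving out Brd9 KO replicate 1 or 2. The lower genes numbered 1 leaving out Brd9 KO replicate 1 or either of control replicates 1 and 3, and 4 leaving out Brd9 KO replicate 3.

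In the peptide loading list, which holds the ABC genes Tap1 and Tap2, none of 15 was called by edgeR, 1 had an unadjusted p under 0.05, and DESeq2, limma-voom and limma on TPM called none, while 5 were lower without Brd9 KO replicate 3. Tap1 was at 174 ± 10.1 and 160 ± 8.73 CPM (a log2 fold change of -0.13 ± 0.10) and Tap2 at 256 ± 20.2 and 223 ± 39.8 CPM (-0.20 ± 0.14). The 2 most abundant members were B2m, the light chain of class I molecules (-0.25 ± 0.16), and the chaperone Calr (-0.35 ± 0.17). Of the potassium channel genes Kcnj8 and Kcnj11, which pair with Abcc9 and Abcc8, only Kcnj8 was tested and it was at 0.474 ± 0.191 and 0.547 ± 0.127 CPM (0.20 ± 0.41), with Cftr not tested.

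In the other lists few genes passed, where 9.19% of all genes were higher and 6.25% lower. The glutathione list, which supplies substrates of subfamily C, had 1 of 15 lower, the transferase Gsto1 (a log2 fold change of -0.51 ± 0.13). The list had 0 lower without control replicate 1 or 2 or either of Brd9 KO replicates 1 and 2, and 5 without Brd9 KO replicate 3. Of 16 peroxisomal genes, Slc27a2, an acyl-CoA synthetase, was lower (-2.36 ± 0.46, from 0.929 ± 0.330 CPM) and Decr2, a reductase of fatty acid oxidation, was higher (0.46 ± 0.13), with 3 genes of the list higher and 2 lower without Brd9 KO replicate 3 and 0 higher without any 1 of the other libraries. Of 12 ribosome recycling and release genes, 1 was lower, the mitochondrial initiation factor Mtif2 (-0.27 ± 0.09), and limma-voom and limma on TPM called none, while the fit gave 2 without Brd9 KO replicate 3 and 0 without any 1 of the other libraries. Of 9 xenobiotic receptor and SLC carrier genes, the cation transporter Slc22a3 was higher (0.76 ± 0.19), and the folate carrier Slc19a1 (-0.65 ± 0.16) and the nucleoside transporter Slc29a1 (-0.38 ± 0.10) were lower. No gene of that list was called without Brd9 KO replicate 2 or either of control replicates 1 and 2, 1 was lower and none higher without Brd9 KO replicate 1, 1 was lower and 1 higher without control replicate 3, and 2 were higher and 2 lower without Brd9 KO replicate 3. Over all 8 lists, the higher genes numbered 0 when Brd9 KO replicate 1 or 2 was left out, 1 for control replicate 1 or 2, 3 for control replicate 3 and 9 for Brd9 KO replicate 3. The lower genes numbered 4 and 5 when Brd9 KO replicate 1 and 2 were left out in turn, 6 for control replicate 1 or 2, 7 for control replicate 3 and 33 for Brd9 KO replicate 3.

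**Figure D4:**
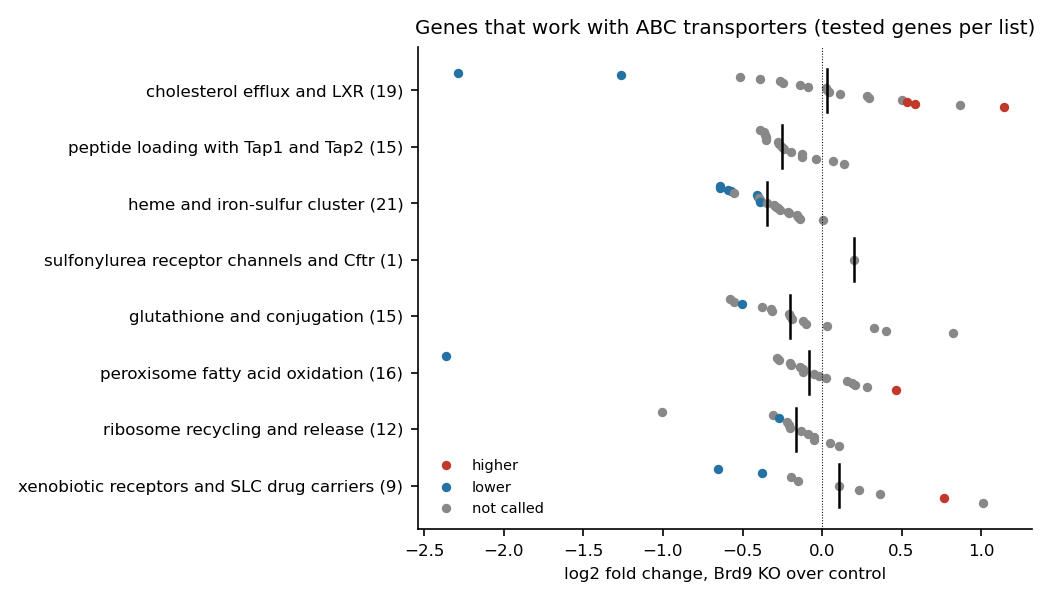
Change between control and Brd9 KO on the log2 scale (horizontal axis, positive where KO is higher) for the tested genes of 8 lists of genes that work with ABC transporters (vertical axis, number tested in brackets). Each point is a gene, red if called higher and blue if called lower, and black bars are list medians. In the heme and iron-sulfur cluster list 20 of 21 genes lie below 0.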

How the data were processed

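Gene expression was measured by poly(A)-selected RNA-seq in 3 control and 3 Brd9 KO libraries, grouped by sample title. The authors used nf-core's RNA-seq workflow, with STAR for alignment to mm10 and RSEM for quantification. The deposited files give RSEM expected counts, TPM and transcript lengths for 24411 genes, and the deposited FPKM were not used. Strandedness is given differently in the labels (unstranded) and in the methods (stranded), so genes with an antisense partner are uncertain. The labels do not say that libraries came from separate mice, and p-values measure the spread between these libraries.

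Expected counts were rounded, filtered with filterByExpr (0.405 CPM), scaled by TMM (factors 0.927 to 1.077) and compared with edgeR 4.0.16 (quasi-likelihood test, R 4.3.3). Benjamini-Hochberg adjustment covered the 12953 genes tested, and a gene was called at an adjusted p under 0.1, the study's threshold. SE is the log2 fold change over the root of the F statistic. The procedure was tested on simulated data. Alternatives used DESeq2 1.42.0, limma 3.58.1, other scalings, filters and thresholds, and each library left out. Replicates were compared by a chi-square test of their counts and differed by more than sampling noise (9.25 to 68.7 per degree of freedom).

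Members, lists and tests were chosen with earlier results of these data known. Every called member was described with each library's value, as were the most abundant member of each subfamily and, where none was called, the member with the smallest p. Single values of some members are not reported here, though counts and sums over members include them. Called list genes were named up to 3 by p, others with them chosen after their values were seen. Genes not matched in the lists were Gcn1, Znf598, Rack1, Epb42 and Trac. Promoter windows were matched by symbol for 38 members.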

Additional observations from a re-analysis of the deposited data

How the results depend on the processing

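Of 681 fold changes of tested members recomputed under the 19 alternatives, 28 lost a call, 9 gained one and no call turned direction. The Abcc2 call held in all of them. The 4 higher members became 2 on log2(TPM + 1), and ranged from 1 to 7 with a library left out. The 2 lower members became 1 at an adjusted p under 0.05 and 1 with a 1.5-fold change required, 0 on log2(TPM + 1) and 0 on log2(TPM + 0.1), and ranged from 1 to 3 with a library left out. Of the genes in the lists, the 5 higher became 2 at an adjusted p under 0.05 and 3 with 1.5-fold required, and ranged from 0 to 9 with a library left out. The 14 lower became 7 and 7 under those thresholds, 9 with library totals only, 6 on log2(TPM + 1) and 6 on log2(TPM + 0.1), and ranged from 4 to 33. Stricter thresholds call fewer genes by construction, and for the TPM scale and library totals the cause was not tested. The median over all tested genes was 0.10 with library totals, 0.18 on log2(TPM + 1) and 0.22 on log2(TPM + 0.1). Over all tested genes 1190 were higher and 809 lower, against 1402 and 489 with library totals, 1114 and 224 on log2(TPM + 1) and 1125 and 215 on log2(TPM + 0.1). The count of all calls was 1999, and was 1010, 729 and 917 without control replicate 1, 2 and 3 and 641, 801 and 4150 without Brd9 KO replicate 1, 2 and 3.

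With the replicate number as a replicate block, 5 members were higher and 2 lower, as Abca2 and Abca13 gained a call and Abca7 lost it, and 7 list genes were higher and 14 lower. Of the same-numbered libraries only those numbered 2 deviated together (r = -0.096, 0.568 and 0.0136 across genes for numbers 1, 2 and 3). Control replicate 1 and Brd9 KO replicate 3, numbered differently, reached 0.45, so the numbers were not read as pairs. The 1 CPM filter left Abcc9 untested. Counts limit the members under about 1 CPM, where a group mean rests on few reads.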

Other observations

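The summed TPM of all 50 members was 492, 716 and 624 in control replicates 1, 2 and 3 and 700, 786 and 507 in Brd9 KO replicates 1, 2 and 3. Control replicate 1 and Brd9 KO replicate 3 were the lowest of their groups, and the groups overlapped. The same members took 0.16% to 0.201% of the counts in control and 0.163% to 0.211% in Brd9 KO.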
